A study of Drosophila melanogaster with 2 samples.

Results

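The small nuclear RNA (snRNA) genes of Drosophila melanogaster encode the short non-coding RNAs of the splicing machinery and a few RNAs made from promoters of the same kind. They were taken as all genes of biotype snRNA in the Ensembl release 115 annotation of the BDGP6 assembly (dm6 coordinates), 32 of the 18358 annotated genes that are not transposable elements. No measured value defined the members, although they were chosen with earlier results of these data known. The data are ChIP-seq peak lists from 1 group of 2 biological replicates: whole embryos of pooled sexes, 0 to 16 h old, from the line odd-GFP, which stably carries the zinc-finger factor Odd skipped (Odd) with GFP at its C terminus. Chromatin was sonicated to 200 to 800 bp and recovered with an antibody against GFP according to the description of the libraries, while their antibody label names odd. Both replicates share the transgene and the antibody, no line without the fusion was analysed here, and an embryo collection of this width mixes stages and tissues. The control library from which the lists were partly derived was not used here.

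An snRNA promoter is short and differs from that of a messenger RNA gene. In flies it carries a proximal sequence element called PSEA a little way before the start, which is bound by a complex of the Pbp proteins, and RNA polymerase II then makes most snRNAs while polymerase III makes U6, U6atac and 7SK. U1 recognises the 5′ splice site, U2 the branch point, and U4, U5 and U6 join as a tri-snRNP at the splicing centre. U11, U12, U4atac and U6atac do the same work for the minor class of introns, U7 directs the cutting of histone messenger RNA ends, and 7SK holds the elongation factor P-TEFb inactive.

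By family there were 5 genes of U1, 6 of U2, 3 of U4, 7 of U5, 3 of U6, 2 of 7SK and 1 each of U4atac, U6atac, U7, U11, U12 and LU. They ranged from 71 bp (U7) to 444 bp (7SKa), with a median of 154 bp. Arm 2L held 16 of them, 3R held 10, 3L held 4 and X held 2. Joined where the gap between neighbours was at most 5 kb, they formed 21 loci, and 18 genes lay in the 7 loci with more than 1 gene. Of the 32, 16 lay inside a protein-coding gene, 11 of these on the strand of a host gene and 5 only on the opposite strand. Only 3 had a protein-coding start within 500 bp of their own, and the median distance to such a start was 3250 bp.

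The promoter sequences are shown first, because they mark which of these genes carry the element that defines an snRNA promoter. Each line gives the 70 bases before the annotated start, 5′ to 3′ on the strand of the gene, from the NCBI Release 6 genome (dm6). Capitals mark, on the strand of the gene, the word TTCCCAA, taken here as the core of PSEA, its variant TTCTCAA, and the TATA word TATAAA.
snRNA:U1:95Ca (chr3R:23859631-23859700, minus strand): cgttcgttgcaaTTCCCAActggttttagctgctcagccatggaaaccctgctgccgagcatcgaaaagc
snRNA:U2:34ABb (chr2L:13215769-13215838, plus strand): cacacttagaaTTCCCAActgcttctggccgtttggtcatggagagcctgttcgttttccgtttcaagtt
snRNA:U4:25F (chr2L:5565549-5565618, plus strand): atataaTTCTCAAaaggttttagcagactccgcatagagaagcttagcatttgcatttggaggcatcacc
snRNA:U5:63BC (chr3L:3090731-3090800, plus strand): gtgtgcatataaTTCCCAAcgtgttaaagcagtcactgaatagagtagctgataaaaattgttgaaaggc
snRNA:U11 (chr3L:3893331-3893400, minus strand): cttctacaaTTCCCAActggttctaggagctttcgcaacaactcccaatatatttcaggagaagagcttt
snRNA:U7 (chr3L:3593753-3593822, plus strand): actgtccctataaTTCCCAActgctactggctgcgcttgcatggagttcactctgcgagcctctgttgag
snRNA:U6:96Aa (chr3R:24556018-24556087, plus strand): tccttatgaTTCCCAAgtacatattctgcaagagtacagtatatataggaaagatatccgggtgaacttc
snRNA:U6:96Ab (chr3R:24556622-24556691, plus strand): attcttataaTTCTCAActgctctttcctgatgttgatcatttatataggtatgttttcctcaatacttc
snRNA:U6:96Ac (chr3R:24557145-24557214, plus strand): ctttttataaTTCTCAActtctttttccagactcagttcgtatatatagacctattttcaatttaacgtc
snRNA:U6atac (chr2L:8389654-8389723, plus strand): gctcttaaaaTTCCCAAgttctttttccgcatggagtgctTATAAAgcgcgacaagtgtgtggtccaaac
snRNA:7SKa (chr3R:7474997-7475066, minus strand): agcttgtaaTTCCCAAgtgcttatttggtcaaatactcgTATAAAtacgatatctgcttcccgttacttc
snRNA:7SKb (chr3R:23432799-23432868, plus strand): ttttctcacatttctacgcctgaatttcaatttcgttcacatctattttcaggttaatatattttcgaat

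The element sat at nearly the same place in all families. TTCCCAA, searched on both strands within 100 bases before the start, was present at 26 of 32 snRNA genes (81.2%) against 1.93% of the 18164 genes on the chromosomes of the lists. Every one of the 26 matches was on the strand of the gene, with its first base 61 to 55 bases before the start and a median of 58. At that place and strand 15 other genes held the word, which makes 0.226% of all genes with the 26 included. Of the 15, 8 were protein-coding genes, 4 ncRNA genes, 2 snoRNA genes and 1 a tRNA gene, and they included RNaseMRP:RNA, snoRNA:U3:9B and tRNA:SeC-TCA-1-1, which encode other small structured RNAs. The variant TTCTCAA, chosen after the sequences were seen, stood at the same place in U2:38ABb, U6:96Ab, U6:96Ac and LU and 64 bases before U4:25F. Only 7SKb had neither. Its annotated RNA matched 7SKa at 48.9% of aligned positions, while the RNAs of the U6 copies were identical.

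TATAAA on the strand of the gene began 31 bases before 7SKa and 30 before U6atac, both polymerase III genes. The U6 promoters printed above all hold the similar letters tatatag near that place, which this exact word does not count. Within 100 bases before the start and on either strand, the word was found at 5 of 32 snRNA genes (15.6%) against 19% of all genes. The word of Odd used here, ACAGTAGC, was not found in these 100 bases at any snRNA gene and stood before 0.171% of all genes. A word this rare is missing from most sets of so few genes, so its absence shows no difference. Within 250 bases it occurred at 1 gene, U4:39B, against 0.396% of all genes. The word of GAGA factor, GAGAG, was found within 100 bases at 3 genes (9.38%, all genes 12.6%), and the DRE word TATCGATA at none (all genes 4.92%). Each word was counted on its own, whether or not it overlapped another, and a match describes the sequence alone.

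**Figure D1:**
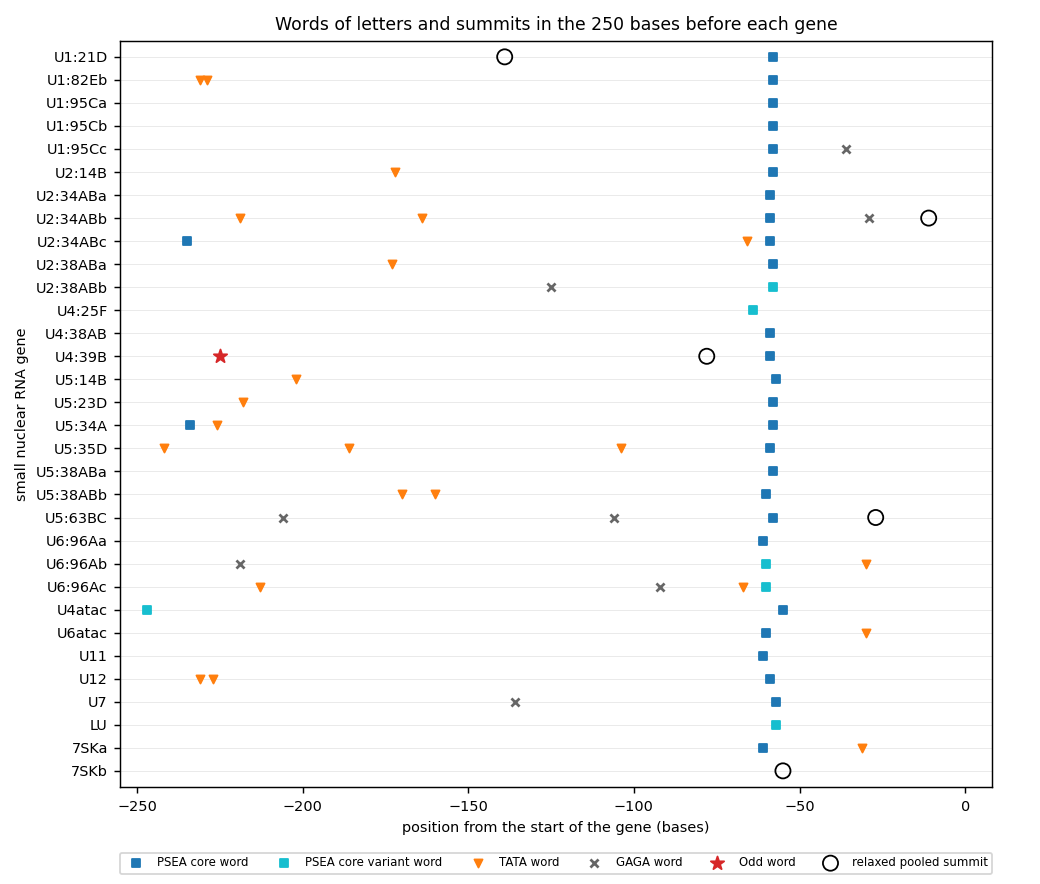
Positions of the words in the 250 bases before each snRNA gene (x axis, bases from the start; 1 row per gene, first base of each word, both strands), with summits of the relaxed pooled list as open circles. The PSEA core and its variant line up 64 to 55 bases before the start in 31 of 32 genes, while the word of Odd occurs once, before U4:39B.

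Strict Odd-eGFP peaks lay at few snRNA genes, as they did at few tRNA and snoRNA genes. In the stricter of the deposited lists, the 4291 peaks kept by the irreproducible discovery rate (IDR), which drops peaks whose ranks do not repeat, a summit lay within 500 bp of the span of 2 of the 32 genes (6.25%), 7SKa and U6:96Ac. The share over all genes was 17.7%. Since snRNA genes are short (all genes had a median of 1656 bp), distances were also taken to the start, and by this measure the shares were 6.25% for snRNA genes, 10.5% for all genes, 11.9% for protein-coding genes, 4.83% for tRNA genes and 7.43% for snoRNA genes. These shares are descriptions with no test. None of the 25 genes taken as polymerase II genes had such a summit, and 2 of the 6 polymerase III genes did. In whole embryos a weak peak in many cells and a strong peak in few cannot be told apart.

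Within 5 kb, 9 snRNA genes (28.1%) had an IDR summit against 37.8% of all genes. By distance to the start these shares were 28.1% and 32.5%. These 9 genes lay in 7 loci and shared 8 separate summits. Over all 32 genes the nearest IDR summit lay a median of 9967 bp away, from 0 bp at 7SKa and U6:96Ac to 45137 bp at U5:23D, and the median over all genes was 9426 bp. Just past the limit of 500 bp came U6:96Ab at 511 bp and U11 at 708 bp. Near the limit of 5 kb were U5:35D at 4407 bp inside and U6atac at 5468 bp outside.

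**Figure D2:**
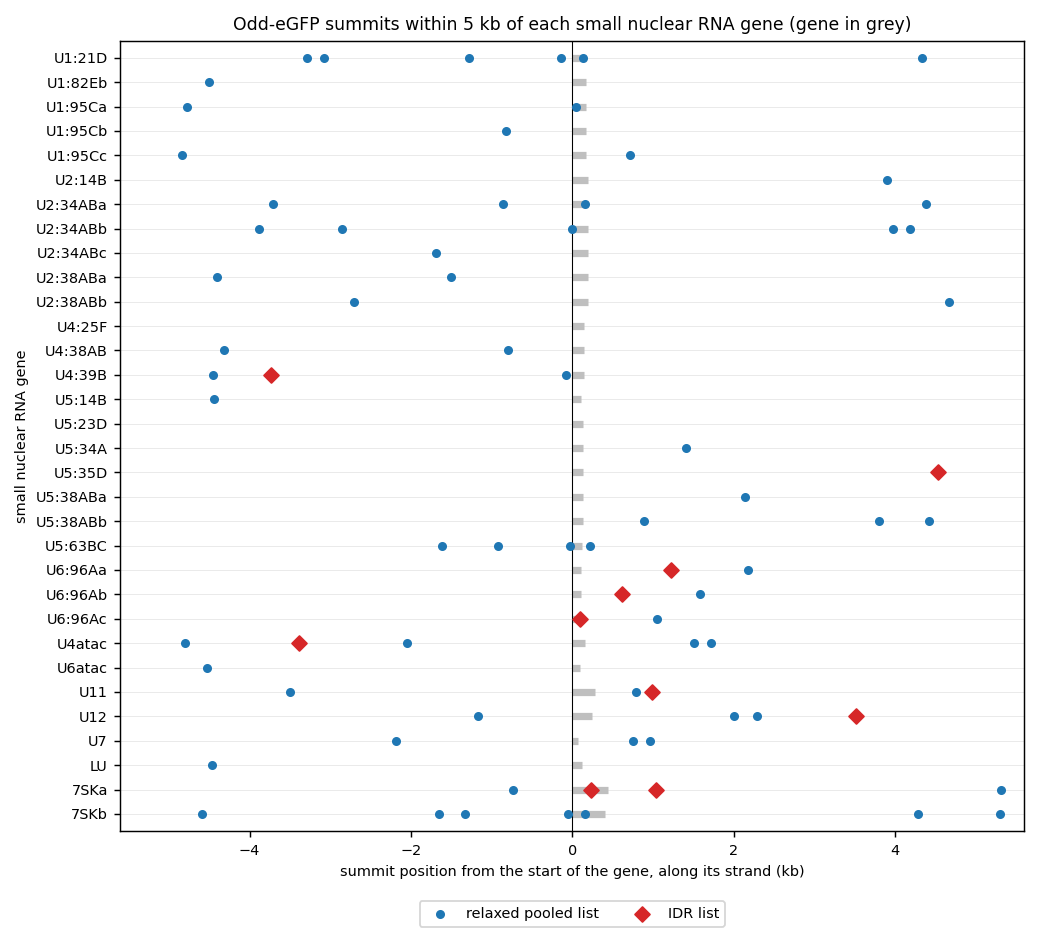
Summits within 5 kb of each snRNA gene, 1 row per gene, with the position along the strand of the gene on the x axis (kb from its start) and the gene itself in grey. Red diamonds are summits of the IDR list and blue points the other summits of the relaxed pooled list; a red diamond lies on the gene only at 7SKa and U6:96Ac.

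The summit at 7SKa was the strongest at any snRNA gene. It lay inside the gene, 236 bases past the start (3R, peak 7474638 to 7474834), and not over the PSEA, which begins 61 bases before that start. The signal value, the score that the authors' caller gave each peak, was 370.5 in the pooled list (rank 863). Replicate 1 gave it 125.2 (rank 1892) and replicate 2 gave it 243.6 (rank 476). Both replicates thus placed it among their strongest 4291 peaks, with summits 50 bp apart, and it ranked higher in replicate 2. The nearest start of another gene was that of CG1142, 979 bp from the summit. A second IDR summit lay 594 bp past the other end of 7SKa and 178 bp from the start of CG1142, with a signal of 730.8 (rank 215). The strongest summit within 5 kb ranked 174 in replicate 1 and 264 in replicate 2, 1044 and 1062 bases past the start of 7SKa.

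The 201 bases around the summit inside 7SKa are printed with 10 bases to each side of the summit in capitals, since this window stands at the edge of the list in base composition.
snRNA:7SKa (chr3R:7474660-7474860, minus strand): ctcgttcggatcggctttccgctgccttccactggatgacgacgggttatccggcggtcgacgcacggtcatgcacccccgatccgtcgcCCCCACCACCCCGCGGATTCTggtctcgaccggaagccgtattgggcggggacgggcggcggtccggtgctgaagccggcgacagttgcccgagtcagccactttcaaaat

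This window was 66.2% G or C, the highest share among the 4291 IDR summits, tied with 1 other, whose nearest gene start was that of Dll. The median over IDR summits was 36.8% and the lowest 11.4%. The summit near CG1142 had 27.4%. The peak was 197 bp wide against a median of 464 bp. No word of 32 bases in 7SKa or in the 500 bp to each side of it occurred at a second place in the genome. Whether base composition has a part in the peak was not tested.

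U6:96Ac lies last in a row of 3 identical U6 genes that all point the same way. Its summit was 94 bases past the start, inside the gene (3R, peak 24557077 to 24557540), with a pooled signal of 145.0 (rank 4271 of 4291). The lowest signal in the IDR list was 144.4, so this peak barely entered it. Replicate 1 had 57.12 (rank 7206, summit 136 bases past the start) and replicate 2 had 83.27 (rank 3683, 105 bases past the start). Only replicate 2 held it among its 4291 strongest peaks. The same summit lay 511 bp past U6:96Ab and 1115 bp past U6:96Aa, and the nearest start other than those of snRNA genes, of tRNA:Asp-GTC-1-11, was 2007 bp away. In the relaxed list of replicate 1 another summit lay between U6:96Ab and U6:96Ac, 121 bases before U6:96Ac (signal 49.18, rank 9181).

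All 32-base words of the U6 genes occurred at more than 1 place in the genome, as did those of 9 snRNA genes in all, while 6.08% of the words in the flanks of U6:96Ac did. In 23 of the 32 genes more than 50% of these words were repeated, and in 9 none was. In the flanks of 500 bp the median share was 0%, and only U2:34ABc, with 53.5%, passed 50%. The sources used here do not state how reads with several matches were handled, and the part of repeats in the counts of summits was not tested. Of the 9 genes without a repeated word, 7SKa alone had an IDR summit within 500 bp.

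U4:39B stood just outside the IDR list. Its strongest near summit lay 78 bases before the start, where the PSEA core begins at 59 bases, inside an intron of Atg18b. The pooled signal was 140.1 (rank 4492). In replicate 1 it was 75.26 (rank 4615, 58 bases before the start) and in replicate 2 it was 73.42 (rank 4566, 24 bases past the start). Both replicates thus ranked it just past 4291, at nearly equal values. U4:39B was also the gene with the word of Odd, on the opposite strand, with its first base 225 bases before the start. The word was not within 100 bp of the pooled summit. Weaker summits lay nearer to the word, 258 bases before the start in replicate 1 (signal 24.18) and 198 in replicate 2 (31.99). Whether the word has a part in any of these summits was not tested. The 250 bases before the gene are printed with that word, read here as GCTACTGT, and TTCCCAA in capitals.
snRNA:U4:39B (chr2L:21215179-21215428, minus strand): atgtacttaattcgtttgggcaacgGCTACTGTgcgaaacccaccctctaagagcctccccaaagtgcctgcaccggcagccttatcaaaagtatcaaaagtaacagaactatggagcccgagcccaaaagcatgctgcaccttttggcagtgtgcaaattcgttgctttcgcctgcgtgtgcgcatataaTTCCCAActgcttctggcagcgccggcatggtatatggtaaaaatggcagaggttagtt

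The relaxed lists, which hold 30000 peaks each with background included, reached more of the genes. The pooled one had a summit within 500 bp of 9 snRNA genes (28.1%) against 43.3% of all genes, and within 5 kb of 30 (93.8%) against 71.9%. By distance to the start, the share within 500 bp was 28.1% for snRNA genes, 53.8% for tRNA genes, 15.2% for snoRNA genes and 33.6% for all genes. Within 5 kb of the start these shares were 93.8%, 86.2%, 82.9% and 67.2%, so the other small RNA genes were high there too. In replicate 1 the count within 500 bp of the span was 11 (34.4%, all genes 45.4%) and in replicate 2 it was 10 (31.2%, all genes 46.4%). Only U4:25F and U5:23D had no pooled relaxed summit within 5 kb.

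**Figure D3:**
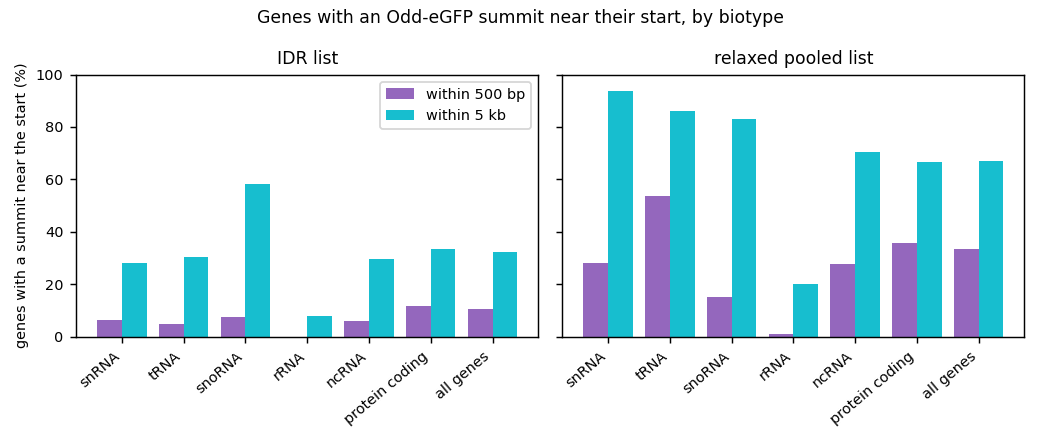
Share of genes (y axis, percent) with a summit within 500 bp (purple) or 5 kb (cyan) of the start, by gene biotype, in the IDR list (left) and the relaxed pooled list (right). The snRNA bars stand at 6.25% and 28.1% on the left and at 28.1% and 93.8% on the right. On the right the 5 kb bars of tRNA and snoRNA genes stand at 86.2% and 82.9%.

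At the 9 genes with a pooled relaxed summit within 500 bp, the strongest one lay before the start at 4 and inside the gene at 5, from 78 bases before to 236 bases past the start. Besides 7SKa, U6:96Ac and U4:39B these were U5:63BC (rank 8063, 27 bases before the start), U1:95Ca (13319), U1:21D (13626), U2:34ABb (13855), U2:34ABa (16435) and 7SKb (23658). The median signal of the strongest summit over these 9 genes was 66.4, and the median of all peaks in the list was 60.8. These are not like measures, since the first takes only the strongest summit of each gene. Both replicates had a near summit at 7 of these genes, and at U1:95Ca and U2:34ABa replicate 2 alone did. In 6 of the 7 the closest summits of the replicates, of any strength, were within 100 bp of each other, and at 7SKb they were 219 bp apart. The strongest summits of the replicates were farther apart at U1:21D (259 bp) and at U5:63BC (255 bp). Replicate 1 alone had a near summit at U4:38AB, U5:34A, U6:96Ab and U6atac, and replicate 2 alone also had one at U1:95Cc. At the other 18 genes neither replicate had one.

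U2:34ABb, a gene for the RNA that pairs with the branch point, had its strongest near summit close to the start in each of the relaxed lists: 11 bases before it in the pool (signal 64.52), 2 before it in replicate 1 (27.27, rank 21963) and 12 before it in replicate 2 (39.32, rank 12047). Those positions repeat closely although the ranks are low. The protein-coding start of kek4 lay 478 bp from the pooled summit. In replicates 1 and 2 it lay 487 and 477 bp away. Of the words used above to count repeats, 100% of those in U2:34ABb occurred elsewhere in the genome, against 0% in its flanks. Whether kek4 or repeats have a part in this summit was not tested. At U5:63BC, whose RNA holds the exons together, replicate 1 had a signal of 59.17 (rank 6808) 42 bases before the start and replicate 2 had 57.32 (rank 6756) 213 bases past it, beyond the end of the gene. The pool had a summit near each of these places. Of the 12 separate pooled relaxed summits within 500 bp of an snRNA gene, 6 had TTCCCAA within 100 bp, against 3.58% of all 30000; the element itself lies within these distances of the starts. None of the 12 had the word of Odd within 100 bp, which 0.58% of the list did. So rare a word is missing from most sets of this size, so its absence shows no difference from the list.

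**Figure D4:**
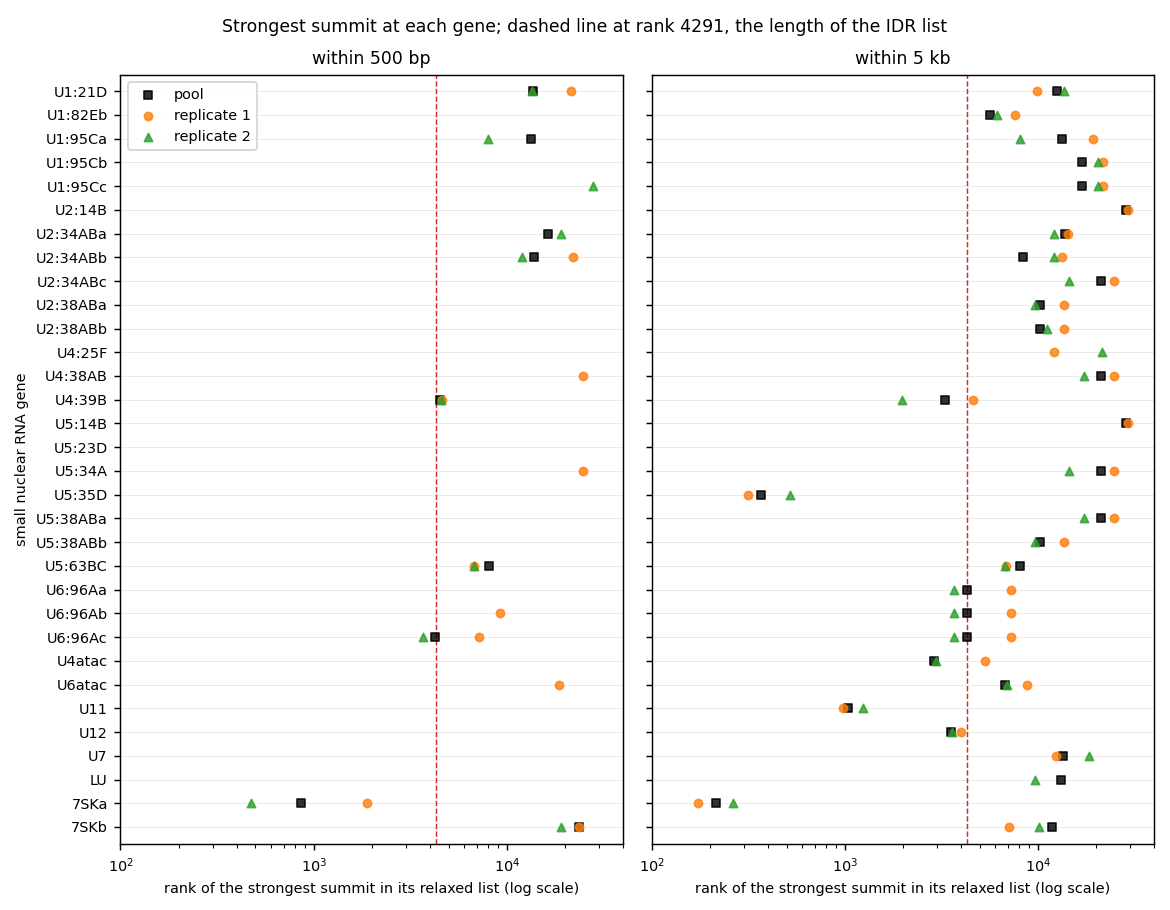
Rank of the strongest summit within 500 bp (left) and 5 kb (right) of each snRNA gene in the relaxed lists (x axis, log scale; squares the pool, circles replicate 1, triangles replicate 2), with a dashed line at rank 4291. Left of the line within 500 bp are 7SKa in all lists and U6:96Ac in the pool and replicate 2.

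Of the 6 IDR summits farther out, 4 lay within 500 bp of a protein-coding start. The share of all IDR summits that did is not given here, so the count is a description only. The strongest within 5 kb of U5:35D, at a signal of 565.4 (rank 368; replicates 313 and 520), lay in an intron of CycE, the cyclin that drives entry into S phase, 540 bp from a start of that gene. The one at U11 (333.1, rank 1042; replicates 979 and 1244) lay 226 bp from the start of Fie, in which U11 sits on the opposite strand. At U4atac the summit (185.1, rank 2895) lay 249 bp from a start of cno, its host, which encodes a protein of adherens junctions. At U4:39B the IDR summit (170.3, rank 3306) lay 363 bp from the start of CG8679. The summit at U12 (163.5, rank 3523) lay deep in an intron of Baldspot, 4332 bp from the nearest start. None of the 8 summits had TTCCCAA or the word of Odd within 100 bp, against 3.54% and 0.862% of all IDR summits. With shares this low and so few summits, the absence shows no difference from the list.

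The replicates differed in how many of these farther summits they held. Replicate 2 had a summit among its 4291 strongest within 5 kb of 9 snRNA genes and replicate 1 within 5 kb of 4, namely 7SKa, U5:35D, U11 and U12. The shares over all genes at this cut are not given here, so the gap is not shown to be particular to snRNA genes. At the others of the 9, replicate 1 ranked its strongest summit past that line, at 4615 for U4:39B, 5288 for U4atac and 7206 for the U6 genes. In replicate 2 these ranks were 1976, 2964 and 3683, the first of them at a summit other than the one of replicate 1, 3728 bases before U4:39B.

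The proteins that make and carry snRNAs were looked at through a list of 45 genes, all found in the annotation. An IDR summit lay within 500 bp of 10 of them (22.2%) and within 5 kb of 20 (44.4%), beside 17.7% and 37.8% of all genes. Among protein-coding genes, the closer comparison, these shares were 20.4% and 39.8%. Of 7 genes for the PSEA-binding complex and general factors, 3 had one within 500 bp, and of 14 Integrator genes, whose products cut snRNA ends, 3 did. For Sm and LSm proteins, which form the ring around the RNA, the count was 1 of 9, for snRNP proteins 1 of 7, for assembly factors 1 of 5 and for the little elongation complex 1 of 3.

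The best placed were Su(Tpl), which encodes the elongation factor Ell (signal 535.6, rank 412, 6098 bp from its own start), Bdp1, a subunit of TFIIIB for polymerase III (534.3, rank 421), and Brf, another TFIIIB subunit (483.9, rank 526). IntS6 (329.9, rank 1066) and SmD3 (259.0, rank 1622) followed. Among these genes, only at SmD3 was its own start nearer to the summit (77 bp) than that of a neighbour (166 bp). For Bdp1 the distances were 102 bp to its own start and 27 bp to that of CG6565, for Brf 183 bp and 74 bp (sds22), and for IntS6 357 bp and 136 bp (Rtel1). Among the pathway genes with weaker IDR summits within 500 bp, the own start was nearer at coil, snRNP-U1-C and IntS10. A neighbour's start was nearer at TfIIB and IntS2. In each replicate the strongest summit within 500 bp of the gene was taken. Its ranks were 472 and 400 for Su(Tpl), 447 and 394 for Bdp1 and 471 and 606 for Brf, high in both replicates. Whether it is the same summit as in the pool is not given here.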

How the data were processed

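Odd-eGFP ChIP-seq of 2 replicates of 1 group was used as 4 deposited dm6 peak lists: per the file records, relaxed lists of peaks with background from each replicate and from the pool, each made with a control, and an IDR list derived from them. The signal value of a peak is a score that the authors' caller gave before deposit; its scale, the caller, aligner and read depth are not stated in the sources used here, so no interval is given. Summits (peak start plus offset, counted from 1) were set against Ensembl release 115 genes; a gene counts where a summit lies within 500 bp or 5 kb of its span. No test was run: the values are counts and ranks, with percentages over the 18164 genes on the chromosomes of the lists. Words were searched on both strands of the NCBI Release 6 genome. All 32 genes are named in counts; full values go to those with an IDR summit within 500 bp, then 5 kb, and to at most 5 pathway genes. U4:39B and the genes with relaxed summits were named after their values were seen. The members and lists were chosen with earlier results of these data known. The counting was tested on simulated positions, and Python 3.11.15, pandas 2.3.3, numpy 2.4.6, Biopython 1.88 and matplotlib 3.10.9 were used. Lists on dm3 were not used. The sequence at 1 of the 2 IDR summits within 500 bp of a gene is not reported here.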

Additional observations from a re-analysis of the deposited data

How the results depend on the processing

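Of 2 snRNA genes with an IDR summit within 500 bp, the limit of 1000 bp gave 4, the stronger 50% of the IDR peaks gave 1 and leaving out genes with any repeated 32-base word, chosen after seeing the data, gave 1. Of 9 within 5 kb, 2000 bp gave 5, 10000 bp gave 16 and the stronger 50% gave 3. In the pooled relaxed list, 9 within 500 bp became 16 at 1000 bp and 4 with the strongest 10000 peaks, and 30 within 5 kb became 13 with the strongest 10000 peaks. The shares over all genes at these limits and list sizes are not given here. Wider limits and longer lists reach more genes of any kind. Of the 2 genes with an IDR summit within 500 bp, none had that summit within 500 bp of another gene's start, and 2 did at 1000 bp. With 1 replicate left out, the counts ran from 1 to 2 (IDR-sized list, 500 bp), from 4 to 9 (5 kb), from 10 to 11 (relaxed, 500 bp) and from 29 to 30 (5 kb); the 1 and the 4 are those of replicate 1 alone. The cause was not tested, and the shares over all genes in the IDR-sized lists are not given here. The other settings stayed within 1.5 times of the value as reported. No paired analysis was possible because there is 1 group. A list of peaks without read counts gives no depth, so absence of a summit is not absence of binding.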
